A study of Mus musculus with 12 samples.

Results

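The genes of the cytoplasmic ribosomal proteins were examined in sorted hair follicle stem cells (HFSCs) of the mouse. Members were taken by symbol: names that begin with Rpl or Rps and a digit, together with Rplp0, Rplp1, Rplp2 and Rpsa. The Rps6 kinases and the names marked -ps, which denote pseudogenes, were left out. This gave 84 of 17885 genes for Eed iKO and control cells and 87 of 21915 genes for anagen and telogen cells, deposited as separate tables. Both tables held 31 genes of the small (40S) subunit and 46 of the large (60S) subunit, here called the core. The others were 6 and 8 genes of paralogs, and 1 and 2 genes that carry such a name without being ribosomal proteins, Rps19bp1 in both tables and Rps23rg1 in the hair cycle table.

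The study sequenced RNA of 12 libraries from back skin of C57BL/6J mice, 3 for each of 4 groups, after sorting for EpCAM, high α6-integrin and CD34 and against Sca1. The Eed iKO mice carried K15-CrePGR, a Cre recombinase driven by a keratin 15 promoter fragment and activated by RU-486, together with Eed fl/fl, where Eed is a core part of the repressive complex PRC2. The labels give their genotype as Eed -/- and their age as P70, and the methods describe 100 µl of RU-486 at 10 mg/ml on the back skin once a day for 7 days, begun at P50. The control libraries are labelled wildtype at P70, and control mice received the ethanol vehicle, so the deletion and RU-486 cannot be told apart in this comparison. The anagen libraries (growth phase, P28 to P30) and the telogen libraries (rest phase, P50 to P52) are labelled wildtype, and hair cycle phase cannot be told apart from age. The methods describe biological replicates from 2 or more litters for Eed iKO and control, and give 6 animals for the hair cycle phases. The labels tie no library to a mouse or a litter, so p-values measure the spread between these libraries.

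Expression is given as the normalized count, which is the read count of a gene after division by a size factor for its library. Each table was normalized and tested on its own. Where values of single libraries are listed, they stand in the order of replicates 1, 2 and 3. Between 33269583 and 57063586 reads per library underlie the Eed iKO comparison, while for the hair cycle comparison the number of reads is unknown. The values are relative to the other RNA of a library, so in these bulk samples fewer cells of a type and less RNA per cell cannot be told apart. Eed itself, the targeted gene, had normalized counts of 1084, 1249 and 950.2 in control and 933.3, 1361 and 1001 in the libraries labelled Eed iKO (log2 fold change -0.01, limma adjusted p = 0.993), so this count over the whole gene, which does not separate the deleted part, gives no check of the labels on which every direction below rests. All 15 HFSC markers examined were detected in both tables. In Eed iKO and control they summed to 1424320 normalized counts or more per library. Markers of immune, endothelial and fibroblast cells there stayed at or below 3279 per list and library. Melanocyte markers reached 9130 and markers of sebocytes and Sca1-positive epidermis 13381. Mitf alone held 8843 of the former and Scd1 11864 of the latter, both in control replicate 3. Every other melanocyte marker stayed at or below 329 in Eed iKO and control. In the hair cycle libraries HFSC markers summed to 247722 or more. The other lists there stayed at or below 649 for immune, endothelial and fibroblast cells, 3285 for melanocytes and 2296 for sebocytes and Sca1-positive epidermis. Of this melanocyte sum Mitf held 3125, and of the sebocyte sum Scd1 held 2058, both in telogen replicate 2. Markers of suprabasal epidermis, which the gate should remove, summed to 22727 to 61968 in control and 22814 to 87069 in Eed iKO, and to 12334 to 20327 in telogen and 10203 to 18356 in anagen.

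A eukaryotic ribosome holds 1 copy of nearly every ribosomal protein, and cells make these proteins in matched amounts. Their mRNAs are short and abundant, and they typically begin with a terminal oligopyrimidine (TOP) tract, a C followed by a run of C or T, through which mTOR signalling and the cap-binding protein LARP1 set their translation. Growing cells raise ribosome production, and the HFSC alternates between a quiescent phase and a short phase of division at the start of hair growth.

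Start sites were available in RefSeq (GRCm38.p6) for 67 of the 87 members. A C followed by at least 4 bases that are each C or T, with the C within 10 bases of a listed start, was present for 41 of these 67 genes (61.2%) and for 34.4% of all 27025 RefSeq genes with a start. By start site the shares were 54.4% and 30.7%. Within 250 bases before and 50 after the start, on either strand, CGGAAG, the core of sites for ETS family factors, was found for 44 of 67 members (65.7%) against 18.8% of all genes, and AAGATGGC, a core of YY1 sites, for 6 (8.96%) against 3.19%. The reverse of CGGAAG can overlap the pyrimidine run. The windows below span 15 bases on each side of the first listed start. They show members from the upper part and the lower end of the range in the Eed iKO comparison, and the near copies Rps27 and Rps27rt. Capitals mark the pyrimidine run.
Rps26 (chr10:128626492-128626521, minus strand): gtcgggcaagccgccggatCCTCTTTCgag
Rps28 (chr17:33824548-33824577, minus strand): ggtaccgcgtgcggtctcgcgagagcgaaa
Rpsa (chr9:120127751-120127780, plus strand): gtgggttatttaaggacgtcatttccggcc
Rplp2 (chr7:141447636-141447665, plus strand): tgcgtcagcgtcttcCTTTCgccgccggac
Rpl22l1 (chr3:28805493-28805522, plus strand): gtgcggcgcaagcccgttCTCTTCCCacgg
Rps27 (chr3:90213634-90213663, minus strand): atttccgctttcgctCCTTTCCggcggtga
Rps27rt (chr9:114982725-114982754, minus strand): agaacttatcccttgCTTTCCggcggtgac
Rpl10a (chr17:28328456-28328485, plus strand): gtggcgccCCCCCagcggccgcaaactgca
Rpl10 (chrX:74270801-74270830, plus strand): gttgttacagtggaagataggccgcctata
Rps26, Rplp2, Rpl22l1, Rps27 and Rps27rt carried the run at the start or a few bases after it, whereas Rps28, Rpsa and Rpl10 had none by this definition and the run of Rpl10a lay before the start. The windows of Rps27 and of its retrogene Rps27rt shared an unbroken run of 14 bases.

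In the libraries labelled Eed iKO, the ribosomal protein genes lay above control almost as a block. Of the 84 members, 83 passed the filter on low values, and all 83 had a log2 fold change above 0, which held for 49.9% of the 15008 genes tested. Their median log2 fold change was 0.99, against -0.001 for all genes, and the values ran from 0.14 for Rpl10a to 2.14 for Rpl29. The median was 1.04 for the 31 genes of the 40S subunit and 0.98 for the 46 genes of the 60S subunit. Rpl3l, the paralog of Rpl3 used in heart and skeletal muscle, did not pass the filter, with 2.08 in control replicate 1, 3.98 in Eed iKO replicate 2 and 0 in the other libraries.

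At an unadjusted p under 0.05, 71 of the 83 members (85.5%) were higher in Eed iKO, where 8.38% of all genes were, and 0 were lower, where 6.33% of all genes were. The groups of libraries did not overlap for 39 members, all higher in Eed iKO (47%), against 10.2% of all genes in that direction. Among the 161 other genes under 1000 nt in the abundance range of the core genes, 78.9% had a log2 fold change above 0 and 47.2% were higher at an unadjusted p under 0.05. The number of members without overlap was 79 without Eed iKO replicate 3 and 66 without control replicate 1. With fewer libraries groups separate more easily for every gene, and the share over all genes is not given here for these fits. A log2 fold change above 1 was reached by 41 members, against 4.79% of all genes. After Benjamini-Hochberg adjustment over all genes, limma called 1 member, Rps26, at an adjusted p under 0.05, where 0.02% of all genes were called higher. The adjusted p lay under 0.1 for 17 members and under 0.2 for 56, against 92 and 896 of all 15008 genes in either direction. The thresholds of the methods, a log2 fold change beyond 1.5 and an unadjusted p under 0.05, were passed by Rpl29 and Rps27rt, against 0.826% of all genes in that direction.

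The count at an adjusted p under 0.05 changed with every library left out and with the test. It was 59 without Eed iKO replicate 3, where 188 of all genes were called. It was 0 without any 1 of the other 5 libraries, where 1 gene was called each time. Without an intensity trend it was also 0, where 2 of all genes were called. With the replicate number as a block, whose meaning the labels do not give, it was 70, where 424 of all genes were called. On the whole reads recovered from this table, the quasi-likelihood test of edgeR called 1 member and DESeq2 called 53. At an unadjusted p under 0.05, 71 and 67 members were higher. Over all genes edgeR called 5, and the DESeq2 count over all genes is not given here. The median log2 fold change of the members stayed between 0.79 and 1.35 in all of these fits.

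**Figure D1:**
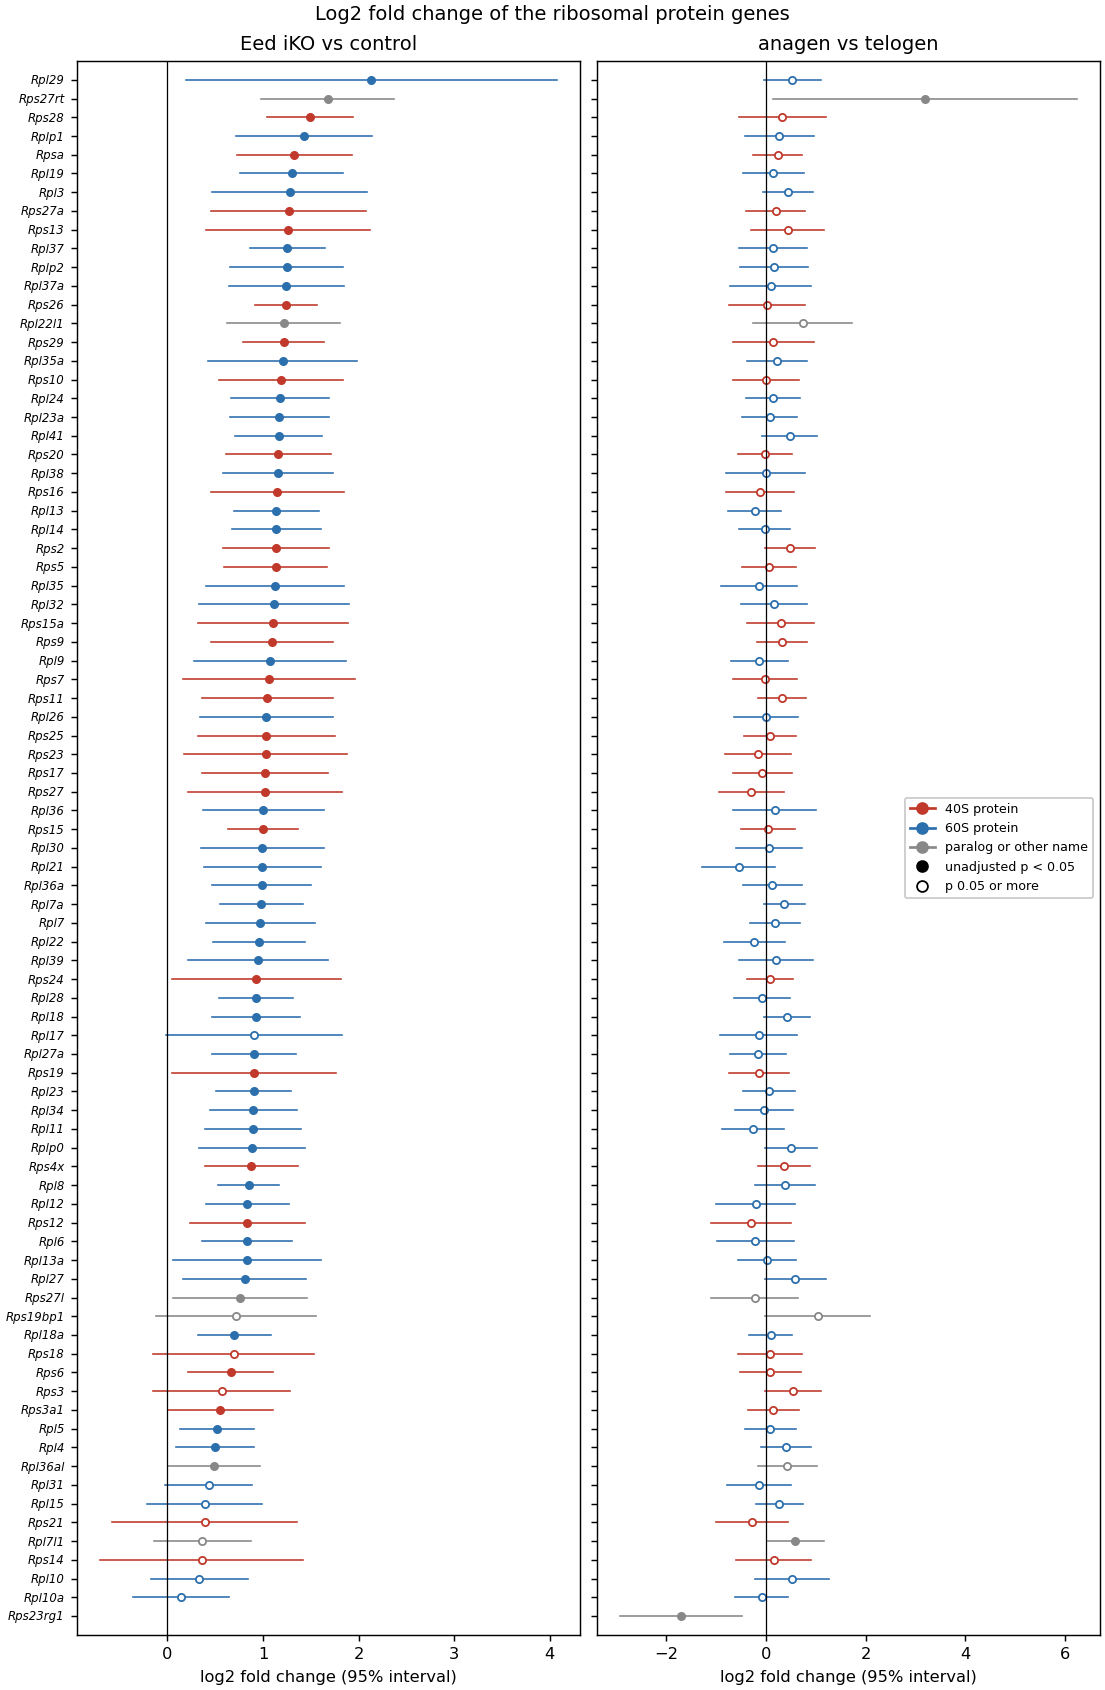
Log2 fold change of the tested members, 1 of them not shown, each with its 95% interval, in Eed iKO against control (left) and anagen against telogen (right), with genes in the order of the left panel and Rps23rg1, tested only on the right, at the bottom. Red marks 40S proteins, blue 60S proteins and grey paralogs and other names; filled points have an unadjusted p under 0.05, and all points on the left lie above 0 while those on the right lie on both sides of it.

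The share of a library taken by the members showed how the libraries were ordered. It was 3.28%, 2.497% and 1.96% of the summed normalized counts across the control libraries, and 5.19%, 5.66% and 3.20% across the Eed iKO libraries. Group means were 2.58% ± 0.67 and 4.68% ± 1.30 (SD, n = 3 each), and the groups overlapped, since control replicate 1 lay above Eed iKO replicate 3. The members moved together between libraries of the same group as well. Eed iKO replicate 3 was the lowest of its group for 82 of 83 members and Eed iKO replicate 2 the highest for 78, where 39.1% and 35.8% of all genes had these positions. Control replicate 1 was the highest of its group for 77 members and control replicate 3 the lowest for 70, against 34.8% and 34.4% of all genes. The ratio of summed 40S to summed 60S counts stayed between 0.54 and 0.68 in all 6 libraries.

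**Figure D2:**
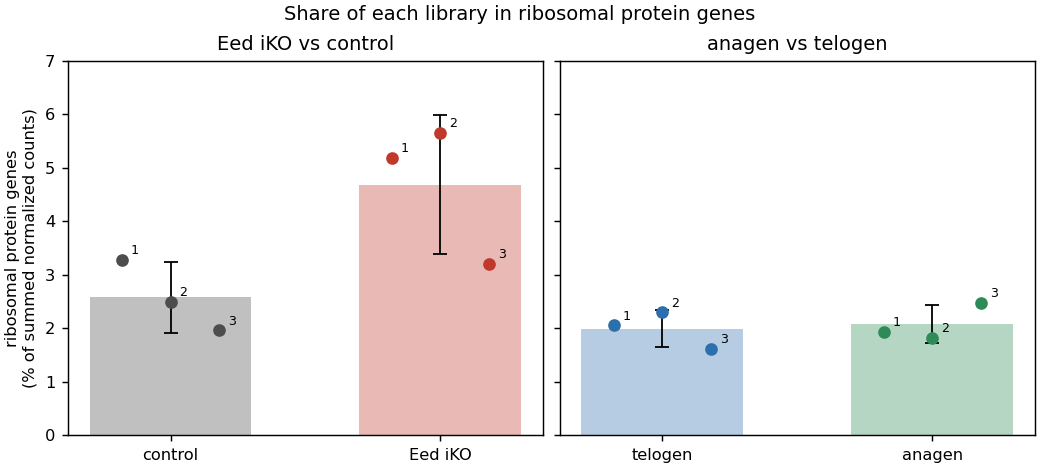
Percent of the summed normalized counts of each library in ribosomal protein genes; points are libraries numbered by replicate, bars are group means and error bars are SD (n = 3). Eed iKO replicates 1 and 2 lie at 5.19% and 5.66%, above every other library, while Eed iKO replicate 3 (3.20%) lies within the reach of control.

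**Figure D3:**
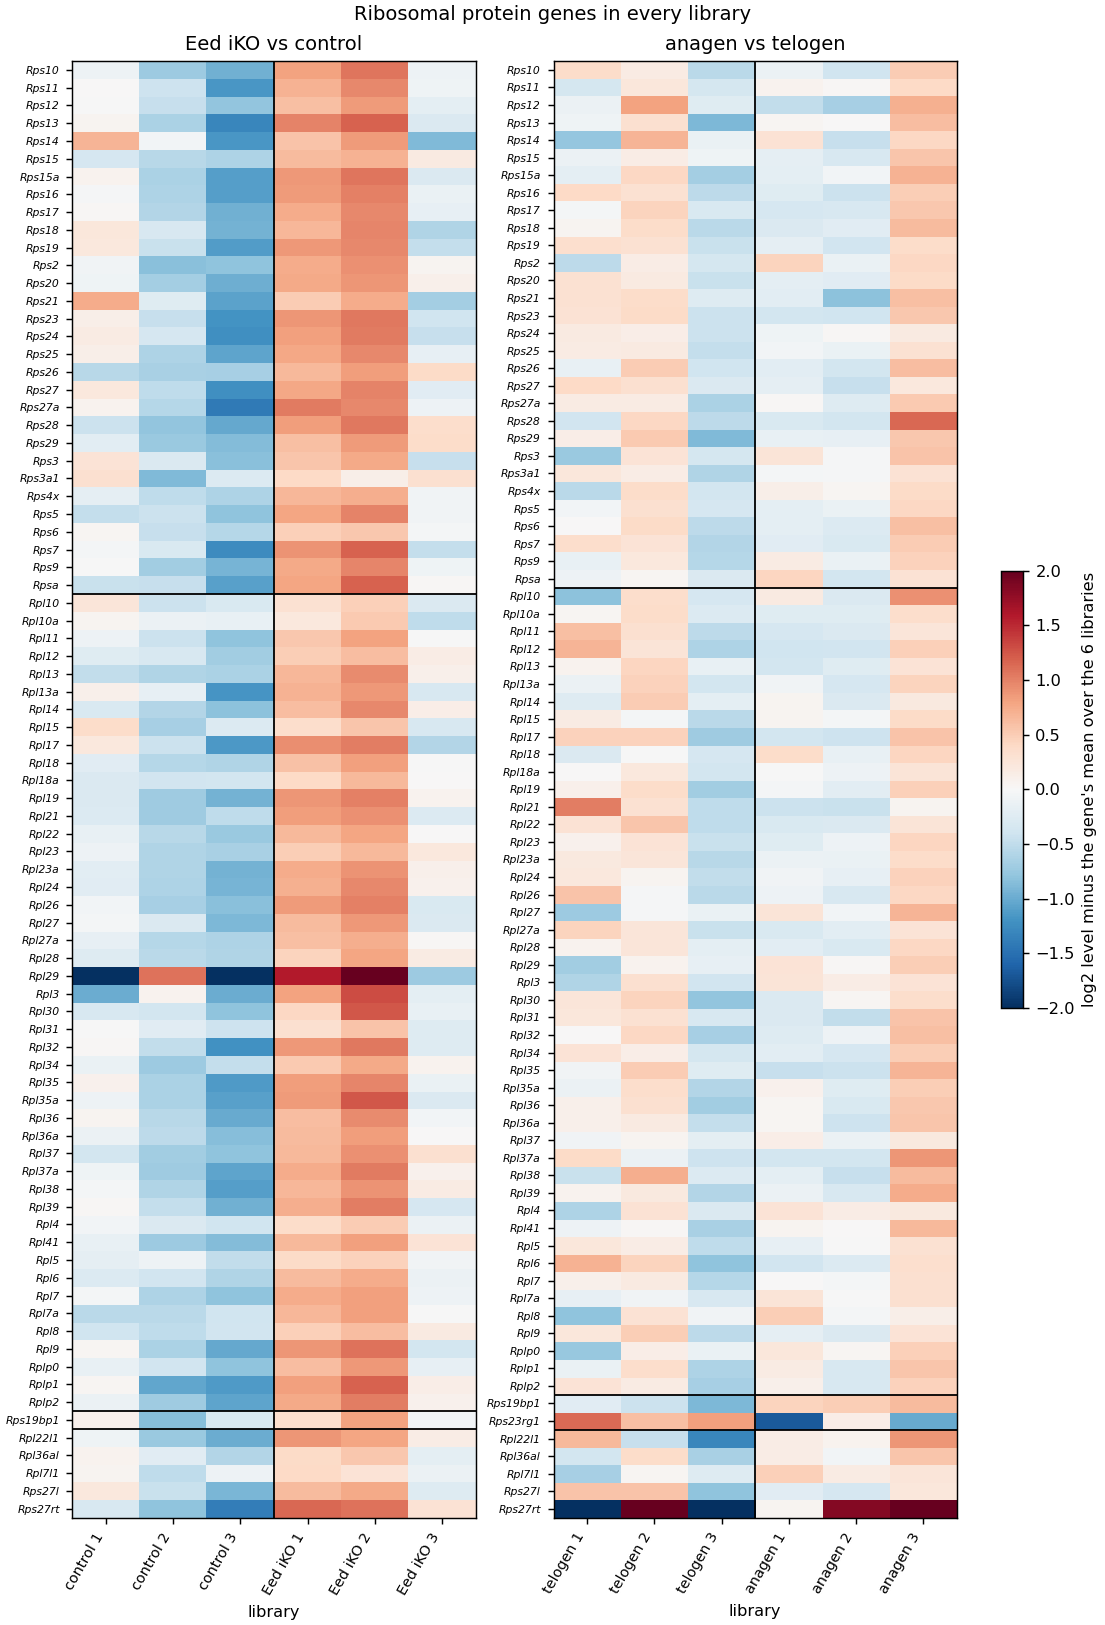
Log2 level of the tested members, 1 of them not shown, in each library minus its mean over the 6 libraries of its table, with 40S genes, 60S genes, other names and paralogs separated by black lines. Colours run down whole columns: Eed iKO replicates 1 and 2 are high and control replicate 3 is low for nearly every gene on the left, and anagen replicate 3 is high and telogen replicate 3 low on the right.

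Several genes of the cell cycle, though not all examined, differed between the same libraries. Mki67, a marker of cycling cells, had normalized counts of 639, 2543 and 928 across the control libraries and 6125, 6301 and 609 across the Eed iKO libraries. Top2a, a topoisomerase of dividing cells, had 642, 755 and 256 in control and 3005, 2750 and 299.6 in Eed iKO. Both were thus high in Eed iKO replicates 1 and 2 and within or below the control range in replicate 3, the library in which the members were lowest of that group. Pcna, another proliferation marker, did not follow this order, with 4503, 3736 and 5740 across control and 4573, 5633 and 5634 across Eed iKO. Mcm2 and Cdk1 were lowest of the Eed iKO libraries in replicate 3 but lay above every control library there. The summed markers of suprabasal epidermis were highest in the libraries of each group that were lowest in members. These sums were 61968 in control replicate 3 and 87069 in Eed iKO replicate 3. Single markers did not all follow this order. Across control, Lor (677, 404 and 613) and Ivl (241, 92.1 and 198) were highest in replicate 1 and Flg (346, 938 and 391) in replicate 2. Across Eed iKO, Flg (288, 71.7 and 260) was highest in replicate 1. Krt10, a keratin of differentiating epidermis, had 7484, 5443 and 26841 across the control libraries and 10738, 3429 and 45520.0 across the Eed iKO libraries, and Krt1, its partner, had 2138, 1802 and 11927 and 1988, 772 and 11058. Among 8 proliferation markers 3 were higher at an unadjusted p under 0.05 and 0 at an adjusted one. Of 7 tested Langerhans and immune markers 2 were higher at an unadjusted p under 0.05, with a summed level of 250.2 to 539 in control and 444 to 1029 in Eed iKO. The part of cycling, suprabasal or immune cells in the members' difference was not tested.

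Rps26, a 40S protein at the mRNA exit channel, was the member with the smallest adjusted p. The gene lies on chromosome 10 of GRCm38 from 128624534 to 128626747 on the minus strand, and its start window above carries the pyrimidine run. Its normalized counts were 6311, 5878 and 5844 across the control libraries and 14469.6, 16469 and 11970.4 across the Eed iKO libraries. Every Eed iKO library lay above every control library, and the control libraries differed little (log2 fold change 1.24 ± 0.15 (SE), limma adjusted p = 0.0259). Without Eed iKO replicate 3 its adjusted p was 0.00673, and without any 1 of the other 5 libraries it ran from 0.0539 to 0.334.

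Rpl29, a 60S protein also described as a heparin-binding protein, had the largest log2 fold change but not a group difference that held across libraries. Its normalized counts were 695, 7029 and 813 across the control libraries and 10014, 16728 and 2016 across the Eed iKO libraries. Control replicate 2 lay above Eed iKO replicate 3, and libraries of the same group differed several-fold (log2 fold change 2.14 ± 0.88 (SE), limma adjusted p = 0.293). Rps28, another 40S protein, had 6829, 5323 and 4513 across the control libraries and 16308, 19109 and 11745 across the Eed iKO libraries. All 3 Eed iKO libraries lay above all control libraries (log2 fold change 1.49 ± 0.20 (SE), limma adjusted p = 0.0549). Rpsa, a 40S protein also known as the laminin receptor precursor, had 11792, 11559 and 7558 across the control libraries and 27655, 36209 and 16214 across the Eed iKO libraries. The groups did not overlap, and Eed iKO replicate 3 was again the lowest of its group (log2 fold change 1.33 ± 0.27 (SE), limma adjusted p = 0.0983).

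The stalk of the 60S subunit, built from Rplp0, Rplp1 and Rplp2, recruits the translation factors. Rplp1 had 16401, 7711 and 7236 across the control libraries and 28191, 36159 and 17442 across the Eed iKO libraries. The groups did not overlap, although control replicate 1 (16401) came close to Eed iKO replicate 3 (log2 fold change 1.43 ± 0.32 (SE), limma adjusted p = 0.107). Rplp2 had 20869.7, 13825 and 10872 across the control libraries and 38302, 45849 and 24018 across the Eed iKO libraries (log2 fold change 1.25 ± 0.27 (SE), limma adjusted p = 0.104). Rplp0, which anchors the stalk, had 18781, 16056 and 11980.4 across the control libraries and 31942, 38116 and 18708 across the Eed iKO libraries. Its groups overlapped by a narrow margin, with Eed iKO replicate 3 just under control replicate 1 (log2 fold change 0.89 ± 0.25 (SE), limma adjusted p = 0.152).

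Rpl5 and Rpl11, which bind 5S rRNA and, outside the ribosome, the p53 regulator Mdm2, were higher in Eed iKO with groups that did not overlap. Rpl5 had 5216, 5508 and 4194 across the control libraries and 7691, 8171 and 5626 across the Eed iKO libraries (log2 fold change 0.52 ± 0.18 (SE), limma adjusted p = 0.21). Rpl11 had 24867, 19808 and 15293 across the control libraries and 38849.7, 46519 and 26617 across the Eed iKO libraries (log2 fold change 0.89 ± 0.23 (SE), limma adjusted p = 0.13). Rps6, the 40S protein phosphorylated by the S6 kinases, had 21611, 15267 and 14238 across the control libraries and 29475, 30719 and 20574 across the Eed iKO libraries, with control replicate 1 above Eed iKO replicate 3 (log2 fold change 0.66 ± 0.20 (SE), limma adjusted p = 0.168). Rps27a, which is made as a fusion to ubiquitin, had 6909, 4425 and 2458 across the control libraries and 13486, 12696 and 6134 across the Eed iKO libraries, and its groups overlapped in the same way (log2 fold change 1.27 ± 0.37 (SE), limma adjusted p = 0.156).

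Among the core, the smallest differences were those of Rpl10a, Rpl10 and Rps14, together with the paralog Rpl7l1. Rpl10a, a 60S protein of the L1 stalk, had 32298, 28721 and 28255 across the control libraries and 36095, 44756 and 21933 across the Eed iKO libraries. Eed iKO replicate 3 was the lowest of all 6 libraries (log2 fold change 0.14 ± 0.23 (SE), limma adjusted p = 0.812), and without Eed iKO replicate 2 the log2 fold change was -0.078. Rpl10, which joins the 60S subunit late in its maturation, had 37574, 23603 and 25772 across the control libraries and 39543, 44557 and 26007 across the Eed iKO libraries (log2 fold change 0.33 ± 0.23 (SE), limma adjusted p = 0.522). Rps14, a 40S protein, spread over a wide range in both groups, from 4143 to 14805 in control and from 4997 to 16708 in Eed iKO (log2 fold change 0.36 ± 0.48 (SE), limma adjusted p = 0.776), and its log2 fold change was -0.13 without control replicate 3. The groups of these 4 genes overlapped.

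**Figure D4:**
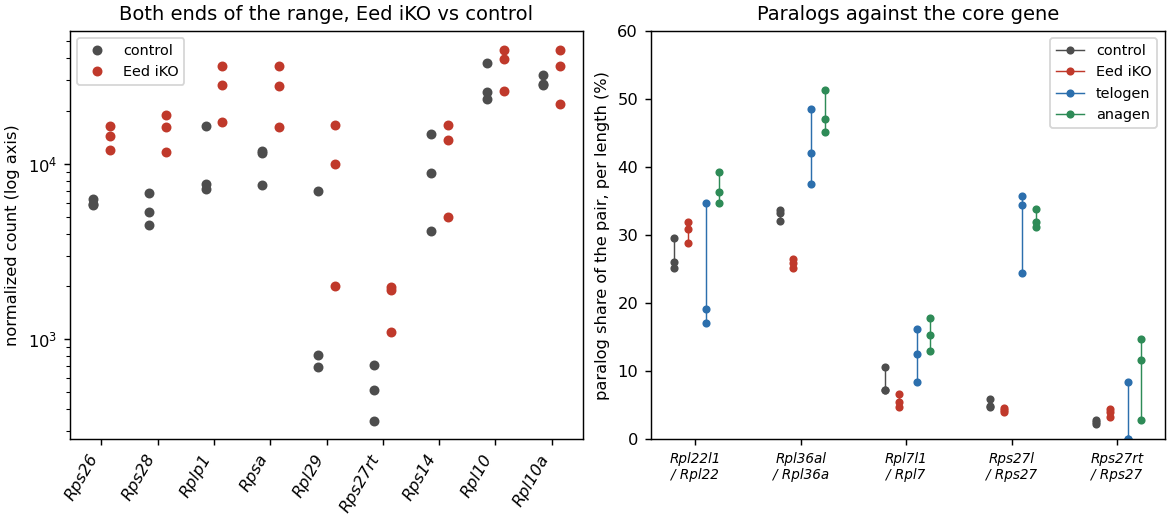
Left, normalized counts on a log axis of 9 members, Rps26 and others at both ends of the log2 fold change range, 1 point per library. Right, the share of a paralog in the summed per-length level of the pair, with points for the 3 libraries of each group; the Rpl36al points of Eed iKO (25.2% to 26.5%) lie below those of control (32.1% to 33.7%).

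Several core genes have paralogs that can take their place in the ribosome, and these did not all keep step with the core gene. Levels of the pair were compared per length of the annotated transcript. Rpl36al, a retrogene of Rpl36a, made up 32.1% to 33.7% of the pair in control and 25.2% to 26.5% in Eed iKO, without overlap, with a log2 fold change of 0.49 for Rpl36al and 0.99 for Rpl36a. Rpl7l1, a factor of pre-ribosomes related to Rpl7, made up 7.19% to 10.6% and 4.70% to 6.67%, again without overlap, with log2 fold changes of 0.36 and 0.97. Rps27l, a target of p53, made up 4.73% to 5.83% of its pair with Rps27 in control and 4.06% to 4.65% in Eed iKO, with log2 fold changes of 0.76 and 1.02.

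The shares of 2 paralogs shifted the other way. Rps27rt, the retrogene of Rps27, made up 2.18% to 2.82% of its pair in control and 3.32% to 4.43% in Eed iKO. Its normalized counts were 717, 512 and 344 across the control libraries and 1984, 1902 and 1103 across the Eed iKO libraries, with no overlap (log2 fold change 1.68 ± 0.31 (SE), limma adjusted p = 0.0899). Rpl22l1, whose mRNA the Rpl22 protein is known to repress, made up 25.1% to 29.6% of its pair with Rpl22 in control and 28.8% to 31.9% in Eed iKO, which overlapped, with log2 fold changes of 1.22 for Rpl22l1 and 0.96 for Rpl22. These shares were not tested.

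Counts of single members are uncertain where transcripts resemble each other. Of all 31-base words in a core transcript, a median of 63.2% also occurred in transcripts of other genes in GENCODE vM21, many of them processed pseudogenes. The share was 46.4% for Rps26, 59.1% for Rps28, 78.8% for Rpl29, 92.3% for Rpl10, 98.7% for Rps27, 92.7% for Rps27rt and 99.0% for Rpl35. Rps27 and Rps27rt each shared most words with the other. Reads of either may thus have been assigned to the other, which leaves the share of Rps27rt in the pair and its log2 fold change uncertain. The 8 members with under 25% of shared words had a median log2 fold change of 0.96 and the 33 members with 75% or more had 1.02.

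Ribosomal protein mRNAs are short, and in this comparison short genes in general were higher in Eed iKO. The median annotated length was 751 nt for the 77 core genes against 2811 nt for all genes tested, and 57 core genes were under 1000 nt. Across all genes the Spearman rho of length and log2 fold change was -0.18. Genes other than the members had a median log2 fold change of 0.33 under 500 nt, 0.23 from 500 to 1000 nt, 0.11 from 1000 to 2000 nt, -0.0077 from 2000 to 4000 nt and -0.085 from 4000 nt on. The 161 other genes under 1000 nt that were also in the abundance range of the core genes had a median of 0.43. The members' medians were 1.02, 1.03, 0.90 and 0.96 in the first 4 of these bands, with 14, 48, 17 and 3 genes, and the only member of over 4000 nt, Rps15a, had 1.10. The median of the members thus lay above that of the other genes in every band. Among the members the Spearman rho of length and log2 fold change was -0.28. A log2 fold change above 1 was reached by 64.3% of members under 500 nt, 54.2% from 500 to 1000 nt and 23.5% from 1000 to 2000 nt. By library, the median deviation of other genes under 1000 nt from their mean was 0.0021, -0.15 and -0.14 across the control libraries and 0.16, 0.22 and 0.068 across the Eed iKO libraries, on the log2 scale. For the members it was -0.062, -0.55 and -0.87 in control and 0.66, 0.90 and -0.094 in Eed iKO. Both thus put control replicates 2 and 3 lowest and Eed iKO replicates 1 and 2 highest, and the part of length in the members' difference was not tested.

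**Figure D5:**
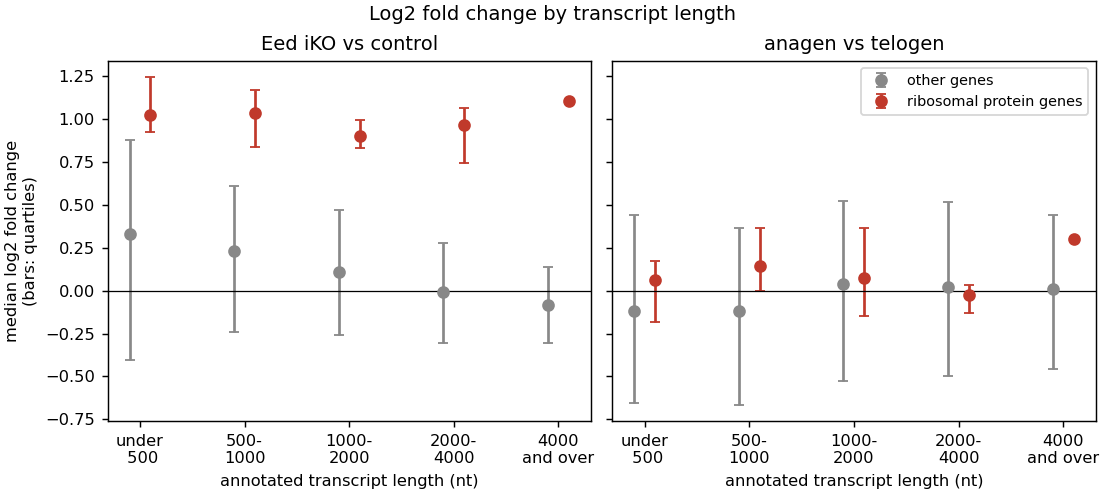
Median log2 fold change, with quartiles as bars, of the members (red) and of all other genes (grey) in bands of annotated transcript length, for Eed iKO against control (left) and anagen against telogen (right). On the left the medians of other genes fall from 0.33 under 500 nt to -0.085 from 4000 nt on, and those of members lie between 0.90 and 1.10. On the right all medians lie between -0.12 and 0.30.

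Fau, which encodes a core protein made as a fusion to a ubiquitin-like domain and falls outside the symbol rule, had a log2 fold change of 1.24 ± 0.21 (SE, limma adjusted p = 0.083), with groups that did not overlap. Of 48 tested translation factors 18 were higher and 1 lower at an unadjusted p under 0.05, of 84 ribosome biogenesis genes 21 and 0, of 78 mitochondrial ribosomal protein genes 28 and 1, and of 21 genes that control TOP mRNAs or ribosome genes 0 and 3. Over all genes 8.38% were higher and 6.33% lower at this threshold. With limma 0 genes of these lists had an adjusted p under 0.05. Their median log2 fold changes were 0.35, 0.28, 0.48 and -0.033, below that of the members, and their median transcript lengths were 2019, 2605, 1253 and 4590 nt against 751 nt for the core genes. The smallest adjusted p in each list belonged to Eef1d, a subunit of the elongation factor that recharges eEF1A (log2 fold change 0.84), Polr1d, a subunit of RNA polymerases I and III (1.04), Mrpl33 (0.83) and Max, the partner of Myc (-0.80). Next came Eif3g (0.79), Ncl (0.78), Mrpl9 (1.01) and Mxd1 (-0.75). Mtor and Larp1 had log2 fold changes of -0.13 and 0.16, and Myc had 0.075.

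In anagen against telogen no shift of the ribosomal protein genes was detected. Of the 87 members, 84 passed the filter. Rpl3l, Rpl10l and Rpl39l, paralogs known from muscle or testis, were listed at 0 in all 6 libraries. With limma, 0 members had an adjusted p under 0.05, where 11.6% of all genes did, 7.22% higher in anagen and 4.35% lower. At an unadjusted p under 0.05, 2 members were higher, Rps27rt and Rpl7l1, and 1 was lower, Rps23rg1, against 15.1% and 12.2% of all genes. Rps27rt alone passed the thresholds of the methods, a log2 fold change beyond 2 and an unadjusted p under 0.05, against 3.33% of all genes in that direction. The groups did not overlap for 3 members that were higher in anagen and 1 that was lower, against 18.1% and 15.2% of all genes. The former number was 21 without telogen replicate 2, 11 without anagen replicate 2 and 5 without telogen replicate 1. Fewer libraries make such separation easier for every gene, and the share over all genes is not given here for these fits. None of the 77 core genes was among those at an unadjusted p under 0.05.

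The median log2 fold change of the members was 0.092, against 0.013 for all genes, with 55 members above 0, where 50.6% of all genes were, and 29 below. It was -0.096 without anagen replicate 3, -0.13 without telogen replicate 3 and -0.017 with scaling to library totals, so its direction was not fixed by these data. Without telogen replicate 2, 4 members had an adjusted p under 0.05, namely Rps3, Rpl3, Rpl4 and Rps27rt, of which Rps3 and Rpl4 are named after their values were seen. The count over all genes in that fit is not given here. With every library 11.6% of all genes were called. The 95% intervals of the core genes had a median half-width of 0.60 on the log2 scale. The members took 1.93%, 1.82% and 2.48% of the summed normalized counts in anagen replicates 1, 2 and 3 and 2.05%, 2.30% and 1.61% in telogen replicates 1, 2 and 3, and the groups overlapped. Anagen replicate 3 was the highest of its group for 78 of 84 members and telogen replicate 3 the lowest for 67, where 34.5% and 31% of all genes had these positions. The ratio of summed 40S to 60S counts lay between 0.85 and 0.94.

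Core genes spanned -0.54 for Rpl21 to 0.59 for Rpl27, both of the 60S subunit. Rpl21 had 1283, 1274 and 1789.8 across the anagen libraries and 3509.9, 2136 and 1210.1 across the telogen libraries. Telogen replicate 1 stood above the other 5 libraries, and the groups overlapped (log2 fold change -0.54 ± 0.33 (SE), limma adjusted p = 0.318). Rpl27 had 802, 641 and 1076 across the anagen libraries and 402, 656 and 611 across the telogen libraries, with telogen replicate 2 just above anagen replicate 2 (log2 fold change 0.59 ± 0.28 (SE), limma adjusted p = 0.194). Rps12, Rps27 and Rps21, all of the 40S subunit, had log2 fold changes of -0.29, -0.29 and -0.28, with adjusted p of 0.643, 0.566 and 0.623 from limma. Without telogen replicate 2 the value of Rps12 was 0.034 and without anagen replicate 2 that of Rps21 was 0.055.

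The widest differences belonged to genes outside the core. Rps23rg1, a retrogene of Rps23 that does not encode a ribosomal protein, had 13.8, 51.4 and 22.7 across the anagen libraries and 103, 71.3 and 83.1 across the telogen libraries. Every telogen library lay above every anagen library (log2 fold change -1.70 ± 0.56 (SE), limma adjusted p = 0.0748). Rps19bp1, which encodes a regulator of the deacetylase SIRT1 that binds Rps19, had 57.5, 59.3 and 65.7 across the anagen libraries and 35.8, 30.9 and 22.2 across the telogen libraries with no overlap (log2 fold change 1.04 ± 0.48 (SE), limma adjusted p = 0.188). Rps27rt had 10.3, 38.0 and 79.4 across the anagen libraries and 0, 45.9 and 0 across the telogen libraries, so that its log2 fold change of 3.19 ± 1.39 (SE, limma adjusted p = 0.166) rests on 2 telogen libraries at 0 and on the pseudocount, and was 5.35 with a pseudocount of 0.1. Rpl7l1 had 651, 527 and 553 across the anagen libraries and 294, 482 and 390.0 across the telogen libraries, without overlap (log2 fold change 0.59 ± 0.26 (SE), limma adjusted p = 0.171). Rpl22l1 made up 34.8% to 39.2% of its pair with Rpl22 in anagen and 17.0% to 34.7% in telogen, and its normalized counts of 328, 309 and 546 in anagen and 464, 215 and 119 in telogen overlapped (log2 fold change 0.74 ± 0.45 (SE), limma adjusted p = 0.318).

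Members with other roles stayed within the spread of the libraries. The stalk genes Rplp0, Rplp1 and Rplp2 had log2 fold changes of 0.50, 0.27 and 0.16. Rplp0 had 10502, 9257 and 12517 across the anagen libraries and 5319, 9892 and 8177 across the telogen libraries (log2 fold change 0.50 ± 0.24 (SE), limma adjusted p = 0.199). Rpsa, Rps27a, Rps6, Rpl5 and Rpl11 had log2 fold changes of 0.24, 0.20, 0.085, 0.091 and -0.26, with limma adjusted p between 0.526 and 0.870. Rpl3, a 60S protein near the peptidyl transferase centre, had 15790.3, 14699 and 16006 across the anagen libraries and 8741, 16504 and 10149 across the telogen libraries (log2 fold change 0.45 ± 0.23 (SE), limma adjusted p = 0.237), and Rps26 had a log2 fold change of 0.03.

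All 8 proliferation markers were higher in anagen at an adjusted p under 0.05, with a summed level of 22380 to 36165 in anagen against 2161 to 3542 in telogen, beside the shares of 1.82% to 2.48% and 1.61% to 2.30% for the ribosomal protein genes. Of 48 translation factors 8 rose in anagen at an adjusted p under 0.05 and 0 fell, and of 84 ribosome biogenesis genes 6 rose and 0 fell. Over all genes 7.22% rose and 4.35% fell at this threshold, so the 6 of 84 ribosome biogenesis genes lay near the share of all genes. Pabpc1, the main poly(A)-binding protein, had a log2 fold change of 1.78 (limma adjusted p = 0.0041) and Eif3d, a cap-binding subunit of eIF3, had 1.23 (0.00665). Nop58 and Dkc1, core proteins of the particles that modify ribosomal RNA, had 1.01 (0.00639) and 1.07 (0.0104). Among 21 genes that control TOP mRNAs or ribosome genes 2 rose and 2 fell, and the smallest adjusted p belonged to Mycn (5.11, adjusted p = 0.00139), whose mean was 7.57 in telogen, and Larp1b (1.92, adjusted p = 0.00372). Larp1, Mtor and Myc had 0.45, -0.20 and 0.62, with adjusted p of 0.242, 0.664 and 0.181 from limma. Of 78 mitochondrial ribosomal protein genes 1 rose, Mrpl49 (1.13, limma adjusted p = 0.0332), and Mrps5 followed with 0.96 (limma adjusted p = 0.0525). Fau had 0.18. Whether the ribosomal protein genes differed from these lists was not tested.

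Levels of the core genes were compared per kilobase of the annotated transcript within each table. Values after ± are SDs, with n = 3 in every group. In the Eed iKO table the mean over the 6 libraries ran from 1445 normalized counts per kilobase for Rpl12 to 84731 for Rps27, with a median of 22644. By this mean over both groups the highest were Rps27 (56695 ± 27491 in control and 112767 ± 43884 in Eed iKO), Rpl13 (43006 ± 2247 in control and 97389 ± 27110.0 in Eed iKO) and Rps4x, the X-linked gene of a 40S protein (40268 ± 6570.0 in control and 75666 ± 21043 in Eed iKO). The lowest were Rpl12 (1037 ± 168 in control and 1853 ± 301 in Eed iKO), Rpl5 (2432 ± 338 in control and 3503 ± 661 in Eed iKO) and Rps15a (2033 ± 842 in control and 4468 ± 1915 in Eed iKO). Rps27 and Rpl13 ranked 1 and 2 in each group, while Rps4x ranked 4 in control and 6 in Eed iKO. The order of Rps27 and Rpl13 did not exceed the spread between libraries.

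In the hair cycle table the order was another. The highest levels per kilobase were those of Rps4x (17890.3 ± 6378 in telogen and 22296 ± 2899.6 in anagen), Rps3a1 (14815 ± 4253 in telogen and 16009.7 ± 2124 in anagen) and Rps6 (13831 ± 4226 in telogen and 14756 ± 5252 in anagen). In telogen these genes overlapped one another. In anagen Rps6 overlapped both others, while Rps4x lay above Rps3a1 without overlap between libraries. The lowest were Rpl37 (194 ± 16.3 in telogen and 215 ± 25.0 in anagen), Rps15a (331 ± 126 in telogen and 404 ± 142 in anagen) and Rpl12 (501 ± 209 in telogen and 424 ± 159 in anagen). By the mean over 6 libraries Rps4x ranked in the top 3 and Rpl12 and Rps15a in the bottom 3 of 77 core genes in both tables, although in telogen alone Rpl36 (rank 75) lay below Rpl12 (rank 74). Rps27, by contrast, ranked 1 among Eed iKO and control libraries and 63 among hair cycle libraries, Rpl13 2 and 57, and Rpl37 39 and 77. Across the 77 core genes the Spearman rho of the levels in the tables was 0.17, where the genes share libraries within a table and both rest on the same annotated lengths. Levels were lower for longer transcripts among Eed iKO and control libraries (rho -0.50), but not among hair cycle libraries (rho 0.079). The 12 core genes under 500 nt had a median of 31357 per kilobase and the 20 genes of 1000 nt or more 12166 in the Eed iKO table, against 1958 and 2368 in the hair cycle table. Both tables were normalized separately, so only the order within each is compared. The annotated length of Rps15a, 5130 nt, is the longest of the core genes, which lowers its value per kilobase. The same holds for Rps20, with 3706 nt, which ranked 74 among Eed iKO and control libraries and 70 among hair cycle libraries.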

How the data were processed

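RNA of sorted HFSCs was measured in 12 libraries, 3 per group, from 10 ng of total RNA amplified before library construction and read as 150 nt pairs. Per the labels and the methods, the authors pseudoaligned reads to Gencode vM20 transcripts with kallisto 0.42.5 and normalized with DESeq2 (given as version 3.11) on mm10. Each deposited value is a signal that the authors obtained by dividing a gene's count by the size factor that DESeq2 gave the library. Deposited means, log2 fold changes, standard errors and p-values of the authors' own comparisons were not used.

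Samples were grouped by their labels. Groups were compared with limma 3.58.1 (R 4.3.3) on log2(normalized count + 1) with an intensity trend, over genes that passed filterByExpr of edgeR at a count minimum of 10, with Benjamini-Hochberg adjustment over 15008 and 13457 genes. Fold changes of low genes are understated on this scale. Whole reads could be recovered for the Eed iKO comparison only, where 100% of values above 0 lay within 0.1 of a whole number of reads, and were tested with edgeR 4.0.16 and DESeq2 1.42.0 as alternatives. For the hair cycle libraries 19.0% to 31.5% of values came out whole. Intervals of log2 fold changes are 95% intervals. The 2 groups of 3 libraries cannot reach an exact permutation p below 0.1, so none is given. Functions were tested on simulated data. Deviations from the group mean were correlated across genes between libraries of the same number, with r of 0.04, 0.07 and 0.19 in the Eed iKO table and -0.03, -0.07 and -0.03 in the hair cycle table, so the numbers were not taken to pair libraries.

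Coordinates and transcript lengths are from GENCODE vM21 (GRCm38), which matched 17798 of 17885 and 21815 of 21915 genes by identifier, and start windows from RefSeq (GRCm38.p6). Members of the rule with names ending in -ps and a digit, 4 and 9 genes, were left out. The members and lists were chosen with earlier results of these data known. Genes named are those with an adjusted p under 0.05, the 5 largest and 5 smallest log2 fold changes of each comparison, 8 paralog pairs, the stalk genes with Rpsa, Rps6, Rps27a, Rpl5 and Rpl11, the 3 highest and 3 lowest core genes per kilobase, and the 2 smallest p of each pathway list. Values of 1 member and of 1 gene outside the rule are not reported here singly.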

Additional observations from a re-analysis of the deposited data

How the results depend on the processing

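The number of members with an adjusted p under 0.05 in Eed iKO against control was 1 and ranged from 0 to 59 with 1 library left out, with 59 reached without Eed iKO replicate 3. It was 2 with TMM scaling, 0 without an intensity trend, 53 with DESeq2 on recovered reads and 70 in a fit with the replicate block. The labels do not say what these numbers mark, and 4 of 6 libraries of the Eed iKO table and 0 of 6 of the hair cycle table correlated best with the library of their own number, a hint from the data only. The members past the thresholds of the methods numbered 2, ranged from 0 to 18 with a library left out, and were 1 without an intensity trend, with edgeR and with DESeq2. The share over all genes is not given here for these alternatives. The median log2 fold change of the members, 0.99, ranged from 0.79 to 1.35 with a library left out. In anagen against telogen the corresponding ranges were 0 to 4 members with an adjusted p under 0.05, 0 to 1 past the thresholds of the methods, 0 to 17 higher at an unadjusted p under 0.05 and -0.13 to 0.26 for the median. Counts over all genes are not given here for these ranges. The members higher at an unadjusted p under 0.05 numbered 1 with the replicate block, with scaling to library totals and without an intensity trend, which also left 0 past the thresholds of the methods. Scaling to library totals moved the median of all genes from 0.013 to -0.096, that of the members to -0.017, Rps6 to -0.025 and Rpl5 to -0.019. Leaving out the 100 most abundant other genes set the share of the members to 3.35% in control, 6.21% in Eed iKO, 2.67% in telogen and 2.78% in anagen.

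With a library left out, the log2 fold change changed sign for single genes. In Eed iKO against control this held for Rpl10a (-0.078 to 0.44) and Rps14 (-0.13 to 0.89). In anagen against telogen it held for Rpl12 (-0.57 to 0.081), Rpl36a (-0.12 to 0.37), Rpl39 (-0.11 to 0.42), Rpl5 (-0.14 to 0.23), Rpl7 (-0.048 to 0.33), Rplp2 (-0.14 to 0.36), Rps12 (-0.72 to 0.034), Rps21 (-0.65 to 0.055), Rps27a (-0.071 to 0.37), Rps27l (-0.68 to 0.012), Rps3a1 (-0.12 to 0.30) and Rps6 (-0.19 to 0.30). Of the values of single genes that kept their direction, 59 passed the adjusted threshold only under an alternative. A further 6, all of Rps26, no longer passed it. These were without an intensity trend and without each library other than Eed iKO replicate 3. Members above the whole of the other group numbered 79 without Eed iKO replicate 3 and 66 without control replicate 1, against 39 with every library. In anagen against telogen they numbered 11 without anagen replicate 2, 5 without telogen replicate 1 and 21 without telogen replicate 2, against 3. These counts have no share over all genes beside them, and fewer libraries make separation easier for every gene. The members above 0 there numbered 30 without anagen replicate 3 and 29 without telogen replicate 3, against 55. The cause of these changes was not tested, apart from the fewer libraries in each such fit. Read depth is unknown for the hair cycle comparison, and low genes such as Rps27rt rest on few reads there.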

Other observations

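Some genes that the rule left out as pseudogene names had values of the same size as members, and are named here after their values were seen. Normalized counts of Rps12-ps3 averaged 1468 ± 737 across control and 3834 ± 1528 across Eed iKO (SD, n = 3 each), with limma giving 1.42 on the log2 scale and an adjusted p of 0.144. Those of Rpl10-ps3 averaged 2645 ± 613 across telogen and 1537 ± 323 across anagen (SD, n = 3 each), with limma giving -0.78 on the log2 scale and an adjusted p of 0.0531, while Rpl10 itself had 0.53 (adjusted p = 0.344). Rpl10-ps3 is among the genes with which Rpl10 shares 92.3% of its 31-base words, so reads of either gene may have been assigned to the other.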
